A study of Rattus norvegicus with 40 samples.

Results

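The genes described here encode the proteins of the cytosolic ribosome. They were taken from the array by symbol: every probe set with a single platform gene symbol that begins with Rpl or Rps and a digit, or with Rplp or Rpsa, was included, and the Rps6k kinases and the Mrp genes of the mitochondrial ribosome were not. This gave 64 of the 8740 probe sets analysed, for 44 symbols. Of these, 61 probe sets for 42 symbols passed the filter on dim probe sets, 42 from the large subunit and 19 from the small one. The other 3 were dim (Rps2-ps1 with 2 probe sets and Rplp1l3) and were not tested. A further 43 probe sets list a ribosomal protein among several symbols and were not used.

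A ribosome joins amino acids in the order an mRNA gives. Its small subunit (Rps proteins) reads the mRNA, and its large subunit (Rpl proteins) forms the peptide bonds, with Rplp0 at the base of a stalk that recruits elongation factors. The genes are among the most strongly transcribed in most cells, and growth signals act on the translation of their mRNAs through a terminal oligopyrimidine tract, a run of C and T bases at the very start of the transcript. In an artery, cells that grow and divide after injury need new ribosomes.

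All arrays came from male Wistar-Kyoto rats 3 months old, and each array held RNA pooled from 3 common carotid arteries. In the gel and tPA groups the left artery was injured with a balloon catheter, and either 500 μl of plain pluronic gel or recombinant tissue-type plasminogen activator (tPA, a protease that activates plasminogen) at 20 nmol/kg in that gel was laid on its outer side. The left gel and left tPA groups are the injured arteries. The right gel and right tPA groups are the uninjured arteries of the other side from animals treated so. Sham groups are left arteries of sham-operated rats, and the intact group is left arteries of rats without operation. Operated animals were sampled on day 1 or day 4. There were 6 intact arrays, 4 of sham day 1, 6 of sham day 4 and 3 in each of the other 8 groups. The labels do not say which right and left arteries shared an animal. A pool holds all cells of the vessel, so fewer cells of a type and less RNA per cell cannot be told apart.

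Promoter sequences of 37 of the 44 symbols were found in RefSeq (GRCr8) by gene identifier. At the annotated start, 11 of 37 (29.7%) had a C followed by at least 4 C or T bases, against 2.63% of all 33469 promoters. A run of at least 8 C or T bases within 20 bases on each side of the start was present in 24 (64.9%), against 15.5% of all. These windows are shown for members that the results turn on, from 10 bases before to 20 after the start, 5′ to 3′ on the gene's strand, with the longest run of C and T in capitals:
Rpl17 (chr18:70856266-70856295, plus strand): ttcgcgCTTCCTCTTCCTgttagcggccag
Rpl23 (chr10:83272165-83272194, minus strand): CTTCCTTTCTgactctttccggacgctcaa
Rps3a (chr2:173827023-173827052, minus strand): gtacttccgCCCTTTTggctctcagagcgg
Rpl31 (chr9:49143101-49143130, plus strand): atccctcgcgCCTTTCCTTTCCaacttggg
Rpl35 (chr3:43165902-43165931, minus strand): CTTCCTCTTTCTCTCgaaccgggcggcctc
Rpl27a (chr1:172974563-172974592, plus strand): cttggtgggCTCCTCCCTCTTTCTTTTCTg
Rpl11 (chr5:153560783-153560812, minus strand): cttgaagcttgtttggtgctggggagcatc
In the Rpl17, Rpl31, Rpl27a and Rps3a windows the run covers or adjoins the annotated start. In Rpl35 it begins before the window and covers the start. In Rpl23 it ends just before the start. The Rpl11 window is shown as one without a run of 8: its longest within 20 bases of the start was 3 bases. Rpl11 was lower on day 4 in 2 of the comparisons given below. It was not alone among called members: the longest run was 4 bases in Rpl26, 5 in Rpl3 and Rpl6, 6 in Rpl24, Rps6 and Rps16, and 7 in Rps3a. In Rpl21 and Rpl13a it was 14. Whether such a run goes with a member's change was not tested. The annotated start can differ from the start used in the artery, and a match is a description only.

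The deposited values are intensities, already scaled so that each is relative to its own array. The members lay high on every array. Their median intensity per array was 2618 to 6026 over the 40 arrays, and the median percentile rank of the tested members among all probe sets was 93.5 to 97.4. The 3′ to 5′ signal ratio of the actin control probe sets, a measure of RNA length, was 16.3 to 21.1 in sham day 1 and 7.38 to 8.09 in left gel day 4, against 2.80 to 23.7 over all arrays. Left gel day 1 replicates 1 and 3 were the most alike of 60 pairs of arrays within groups (SD of log2 differences 0.45, against a median of 0.838). Whether these 2 pools were independent was not tested. With both averaged to 1 array, the 4 members called in left gel against sham on day 1 were called again (limma), Rpl6 lost its call in left gel against sham on day 4 (limma adjusted p = 0.0532), and the overall test called 12 members.

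Earlier results of these data set 4 tPA arrays apart from the others of their group, and these arrays also differ from them in marker levels. The summed intensity of 5 macrophage markers was 3960 in left tPA day 4 replicate 1, against 9554 and 10256 on the other arrays of that group. It was 6489 in left tPA day 1 replicate 2 against 11840 and 15132, and 16462 in right tPA day 4 replicate 1 against 5123 and 5632. In right tPA day 1 replicate 2 the sum of 4 markers of dividing cells was 10752, against 2606 and 3232. Labels were kept as deposited, and results that change without these 4 arrays are given with both values. Leaving them out is a choice made with the values known.

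The median span of the 11 group means was 1.15 on the log2 scale, for members and for all tested probe sets. It was 0.93 for 703 other probe sets as bright as the members, and 0.94 for the 49 members with a median intensity of 1000 or more. The group that stood out was sham day 4. Sham day 4 had the highest mean of the 11 groups in 31 of 61 tested members and the lowest in 0. The median member intensity was 3986 to 6026 on the 6 sham day 4 arrays. It was 3628 to 4531 on the intact arrays and 3614 to 5350 on the sham day 1 arrays. On day 4 it was 3808 to 3830 in left gel, 2618 to 4317 in left tPA, 3210 to 3878 in right gel and 3233 to 3632 in right tPA. All arrays of left gel, right gel and right tPA on day 4 thus lay below all sham day 4 arrays, while left tPA overlapped them through 1 array. The 99th percentile of each array, over all probe sets, moved in the same direction: it was 5857 to 9355 in sham day 4, 5336 to 5744 in left gel day 4 and 4528 to 5373 in right gel day 4. How far this upper range of the arrays accounts for the members' values was not tested.

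**Figure D1:**
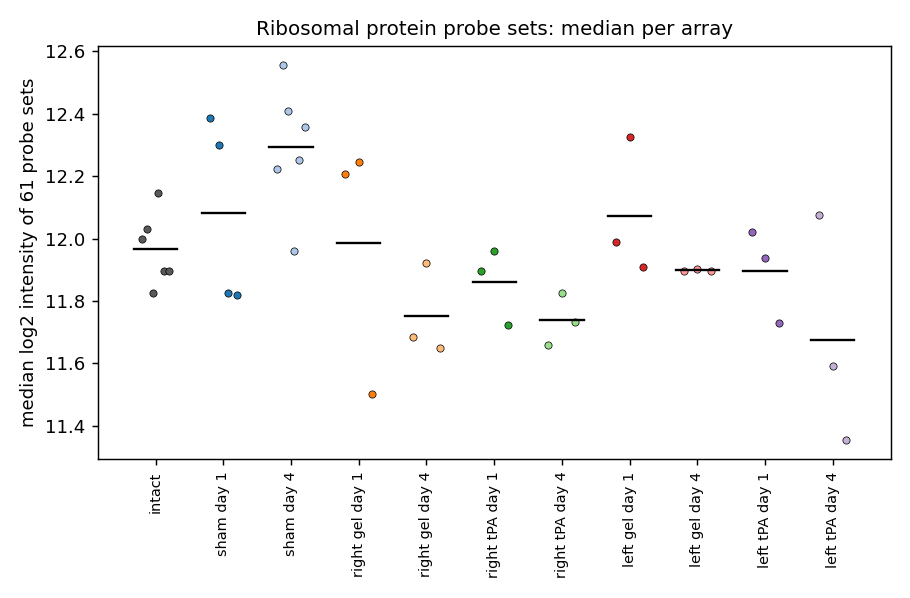
Median log2 intensity of the 61 tested ribosomal protein probe sets on each of 40 arrays, by group; each point is an array and the line is the group mean. The sham day 4 mean of 12.29 is the highest, and left tPA day 4 (11.67), right tPA day 4 (11.74) and right gel day 4 (11.75) are the lowest.

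An overall test for any difference among the 11 groups (limma, moderated F) called 16 of 61 members at an adjusted p under 0.05, or 26.2%, for 14 symbols. Of all probe sets tested, 26.1% were called, so the members' share was close to the background. The smallest adjusted p-values were those of Rpl21 (rc_AA849648_g_at, 0.00059, and rc_AA849648_at, 0.00105), Rpl17 (0.00181) and Rpl30 (0.00564), limma. The other 12 called were another Rpl21 probe set, Rps29, Rps3a, Rps16, Rpl11, Rpl24, Rps15, Rpl26, Rpl41, Rpl35, Rps6 and Rps27l. Without right gel day 1 replicate 3 the count was 26.

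The clearest day 1 pattern concerned 3 large subunit genes in sham-operated arteries. Rpl17, which has been described as restraining the growth of vascular smooth muscle cells, had intensities of 115.5, 101.1, 100.1 and 83.7 on the sham day 1 arrays (AB013454_at). On the intact arrays Rpl17 ranged from 312.3 to 439.3, with a median of 381.9, so the groups were far apart. Rpl30, which is also known to take part in selenocysteine incorporation, read 98.2, 171.5, 89.3 and 71.9 in sham day 1 (D84480_s_at) and 438.4 to 766 in intact arteries. Rpl21, another protein of the large subunit, read 180.1, 160.6, 88.7 and 68.7 with the probe set rc_AA849648_g_at, against 517.9 to 1162 in intact arteries. Its partner rc_AA849648_at, built on the same sequence entry, gave 342.9, 304.8, 230.8 and 300.1 against 685.3 to 1351. In each of these 4 probe sets every sham day 1 array lay below every intact array.

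Sham day 1 against intact arteries, the comparison that asks what the operation without a balloon does, called these 4 members lower and no other member (6.56% of 61; background 0.549% lower, 0.944% in either direction). The log2 differences were -2.59 (SE 0.42) and -1.65 (SE 0.28) for the 2 Rpl21 probe sets, -1.91 (SE 0.33) for Rpl17 and -2.39 (SE 0.44) for Rpl30. These are 6.02-fold, 3.14-fold, 3.76-fold and 5.25-fold lower, with limma adjusted p of 0.000382, 0.000513, 0.000616 and 0.00155. The median difference of all 61 members was 0.05, and turned to -0.02 with quantile normalization, against -0.09 for all probe sets tested. The fall was therefore not one of the members as a group.

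Leukocyte markers moved beside these genes on day 1. In sham day 1 against intact arteries 1 of 6 was called higher, Cd3g of the T cell receptor complex (2.27, SE 0.58, limma adjusted p = 0.0495), and 0 were called in the other 9 marker lists. The sum of the 6 was 2672 to 4034 in sham day 1, above the 334 to 2371 of intact arteries and the 237 to 1046 of right gel day 1, and none was at the floor on all arrays of a group. In right gel against sham on day 1, 1 of 6 was called lower, Cd74, the invariant chain of class II molecules (-4.41, SE 1.07, limma adjusted p = 0.0332). In left gel against sham on day 1, 0 of these 6 were called, while 5 of 7 markers of skeletal muscle, 2 of 4 of dividing cells, 1 of 5 of macrophages and 1 of 3 of neutrophils were called higher. The part of these cells in the members' values was not tested.

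Other Rpl21 probe sets read differently. With X15216cds_s_at, Rpl21 had its highest group mean in sham day 1 (13.00 on the log2 scale) and its lowest in intact arteries (12.42). The 4 Rpl21 probe sets had opposite signs in sham day 1 against intact, from -2.59 to 0.58. Across the 40 arrays the correlation with the mean profile of the 4 low probe sets was 0.12 for M27905_at and -0.001 for X15216cds_s_at, as a description over arrays that share the scaling. Within groups, the deviations of the 4 low probe sets from their group means went together, with pairwise correlations of 0.73 to 0.82. Which of these probe sets follows the Rpl21 transcript was not tested, and ribosomal protein genes have many near-identical copies in the genome that such probes may also read.

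**Figure D2:**
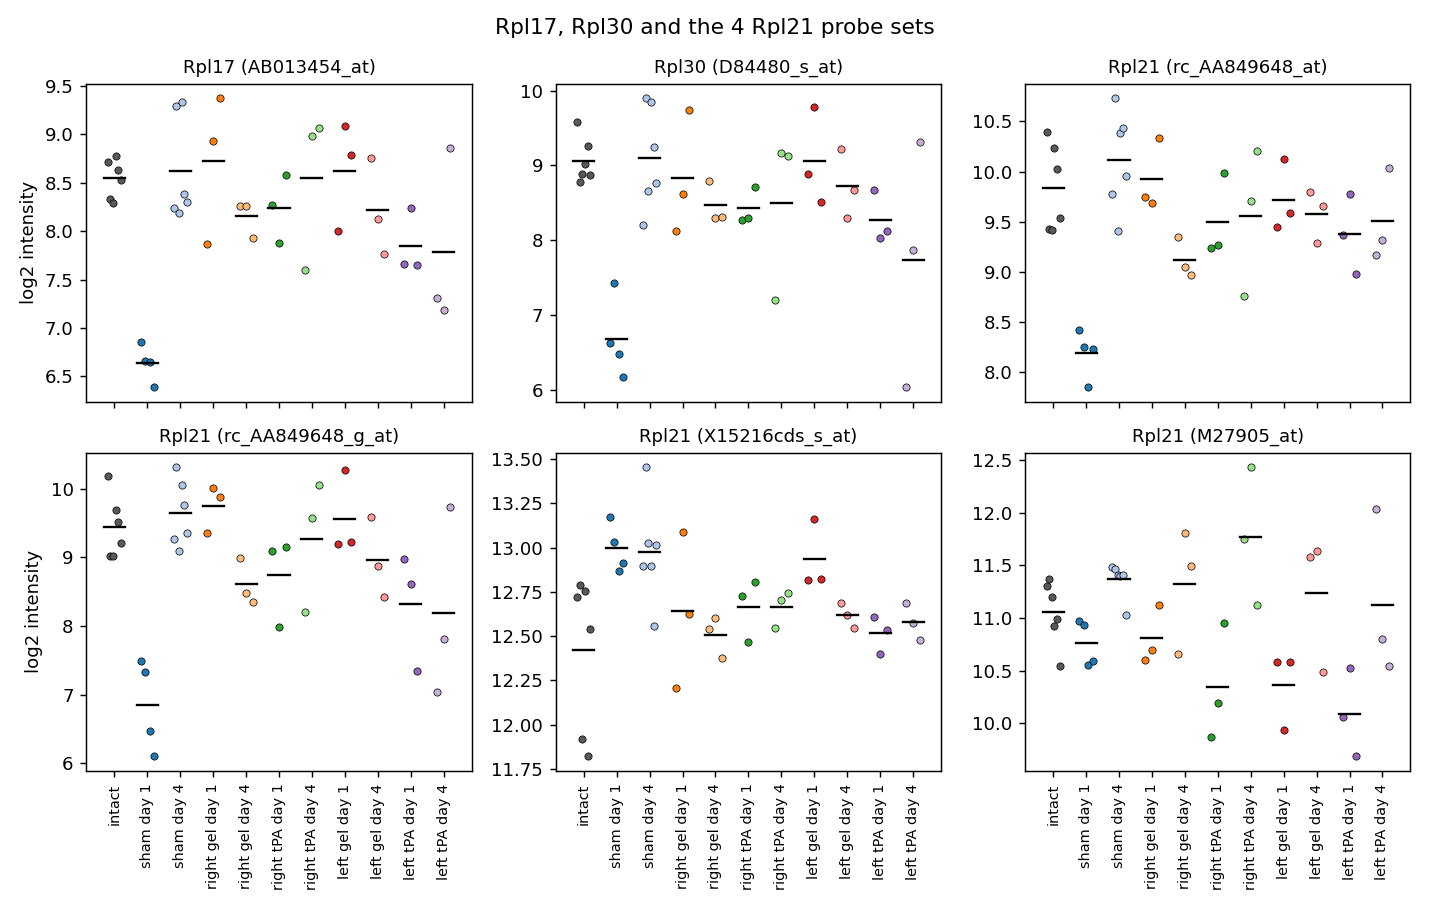
Log2 intensity of Rpl17, Rpl30 and the 4 Rpl21 probe sets on 40 arrays, by group; each point is an array and the line is the group mean. Rpl17, Rpl30 and both rc_AA849648 probe sets are low on the 4 sham day 1 arrays, whereas X15216cds_s_at and M27905_at are not.

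The likeness of the 4 probe sets to other genes was looked up after their values had been seen. Among named probe sets outside the members, the profiles over 40 arrays most like their mean were those of Lamp1 (r = 0.86), a lysosomal membrane protein, Chchd1 (0.85), a protein of the mitochondrial ribosome, Ybx1 (0.82), an mRNA-binding protein, and Cox6c and Cox5a (0.80 and 0.78), subunits of cytochrome c oxidase. Among the members the next was Rpl5 (0.76), which binds 5S RNA with Rpl11. The sham day 1 arrays, low in these probe sets, had 3′ to 5′ ratios of 7.53 to 10.3 for GAPDH and the actin values given above. Ratios of the intact and gel day 1 groups they were compared with are not given here. The part of RNA quality in the low values was not tested.

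The same 4 probe sets set apart the day 1 comparisons with sham arteries. In injured arteries under gel on day 1 they were higher than in sham day 1: Rpl17 read 255.9, 544.9 and 440.9, Rpl30 read 471.9, 875.7 and 366.1, and Rpl21 (rc_AA849648_g_at) read 586.5, 1242 and 597. None of these overlapped sham day 1. Left gel against sham on day 1 called the 4 higher and no member lower (6.56%; background 1.66% higher, 3.12% in either direction). Rpl21 was 6.58-fold and 2.88-fold higher by its 2 probe sets, Rpl30 5.23-fold and Rpl17 3.97-fold, with limma adjusted p of 0.00325 to 0.00805. Without left gel day 1 replicate 2 the count was 2. The median over members was -0.08, with 25 above 0 and 36 below. The largest falls, neither called, were those of Rps23 (-2.66, SE 1.13) and Rpl27 (rc_AI176589_g_at, -2.20, SE 1.19), and both held 1 low reading, 5.1 and 67.5, in left gel day 1 replicate 3 against 3572 or more on the other left gel day 1 arrays.

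Uninjured right arteries under gel differed from sham on day 1 in the same 4 probe sets, and these comparisons share their sham arrays. Rpl17 read 233.6, 488.6 and 663.9 there, Rpl30 277.8, 393.7 and 854.5, and Rpl21 (rc_AA849648_g_at) 653.9, 1029 and 945.6, all above the sham day 1 arrays. They were called higher (6.56%; background 0.532% higher, 0.927% in either direction), by 7.46-fold and 3.33-fold for Rpl21, 4.25-fold for Rpl17 and 4.45-fold for Rpl30 (limma adjusted p 0.00258, 0.00347, 0.00327 and 0.0332). Blocking on replicate number gave Rpl30 an adjusted p of 0.112 (limma). Values of these genes above sham on day 1 were thus not limited to the injured side. Mean log2 levels in left gel day 1, right gel day 1 and intact arteries were 8.62, 8.73 and 8.55 for Rpl17. They were 9.06, 8.83 and 9.06 for Rpl30, and 9.57, 9.75 and 9.44 for Rpl21 (rc_AA849648_g_at). Sham day 1 was the low group, at 6.64, 6.67 and 6.85 for these probe sets.

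The change between days of the difference between injured arteries under gel and sham arteries followed from these values. For left gel minus sham, day 4 minus day 1, limma called 4 members lower (6.56%; background 0.789% lower, 2.42% in either direction): Rpl21 by -3.39 (SE 0.69, adjusted p = 0.00393) and -2.06 (SE 0.45, adjusted p = 0.00677), Rpl17 by -2.40 (SE 0.53, adjusted p = 0.00809) and Rpl30 by -2.76 (SE 0.72, adjusted p = 0.0286). Left gel day 4 itself was not below left gel day 1 in any member at the threshold (0 called; background 3.21%; 4 members at an unadjusted p under 0.05). With the replicate block 0 of these 4 differences of effects were called.

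Under tPA on day 1 the same 4 probe sets again had higher means than in sham, but only 1 of them passed, on the left side. Left tPA against sham called 1 member higher and 1 lower (3.28%; background 1.61% higher, 2.81% lower, 4.43% in either direction). Rpl21 (rc_AA849648_at) read 661.7, 877.5 and 504.6, above all sham day 1 arrays, and was 2.28-fold higher (limma adjusted p = 0.0327). Rpl26, a large subunit protein known to bind p53 mRNA, read 1674, 2000.1 and 2160 with rc_AA893493_i_at, against 6404, 5869, 4013 and 3261 in sham day 1. Rpl26 was 2.44-fold lower (limma adjusted p = 0.0294), without overlap. Intact arteries gave 1943 to 3504 for Rpl26, overlapping both groups. The other Rpl26 probe set differed by -0.44 from sham and was not called. Rpl17 was 2.32-fold and Rpl30 3.03-fold above sham without overlap, and Rpl21 (rc_AA849648_g_at) 2.77-fold with overlap, none of them called (limma adjusted p 0.0677 to 0.0833). In all, 4 members lay above every sham array and 5 below, against 11.6% and 8.94% of all probe sets. The calls of Rpl21 and Rpl26 were lost with quantile normalization. Without sham day 1 replicate 2, left tPA day 1 replicate 1 or left tPA day 1 replicate 3, 0 members were called. Without the 4 tPA arrays named above 3 were called, and Rpl21 (rc_AA849648_at) was not (limma adjusted p = 0.0577).

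In right tPA against sham on day 1, 0 members were called (background 0.172%; 7 at an unadjusted p under 0.05, limma), with a median of -0.25 that moved to -0.01 with quantile normalization. The 4 probe sets lay above every sham array there: Rpl17 differed 3.04-fold, Rpl30 3.38-fold and Rpl21 2.47-fold and 3.73-fold (limma adjusted p 0.0749 to 0.172). No other member did so, and of all probe sets 10.5% lay above every sham array. A further 13 members lay below every sham array, against 5.66% of all probe sets. Without the 4 tPA arrays 2 members were called higher.

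On day 4 most members had lower means than in sham-operated arteries on both sides and under both treatments, but most were not called. Called lower were 4 of 61 in left gel, 7 in left tPA, 8 in right gel and 5 in right tPA. These are 6.56%, 11.5%, 13.1% and 8.2% of members. Of all probe sets tested, 7.89%, 1.92%, 2.59% and 0.481% were called lower, so only the left gel share was not above the background. In left gel against sham, 48 of 61 members were below 0, with a median difference of -0.37 against 0.02 for all probe sets tested and -0.19 for 703 other probe sets as bright as the members. In left tPA against sham 54 were below 0 (median -0.60), in right gel 53 (-0.50) and in right tPA 44 (-0.49). The medians of all probe sets tested were 0.06, -0.04 and -0.01 there, and those of the other bright ones -0.16, -0.21 and -0.14. These 4 comparisons share the 6 sham day 4 arrays. With quantile normalization, which gives all arrays one distribution, the members' medians kept their sign and were -0.14, -0.28, -0.21 and -0.21. Those of all probe sets tested were then -0.07, -0.02, -0.10 and -0.03. With median scaling the members' medians were -0.47, -0.66, -0.55 and -0.44.

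Against intact arteries, sham day 4 was higher in 55 of 61 members, with a median difference of 0.31 (0.15 with quantile normalization and 0.19 with median scaling) against 0.04 for all probe sets. Of the members 0 were called (background 0.378%), and 5 had an unadjusted p under 0.05 (limma).

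**Figure D3:**
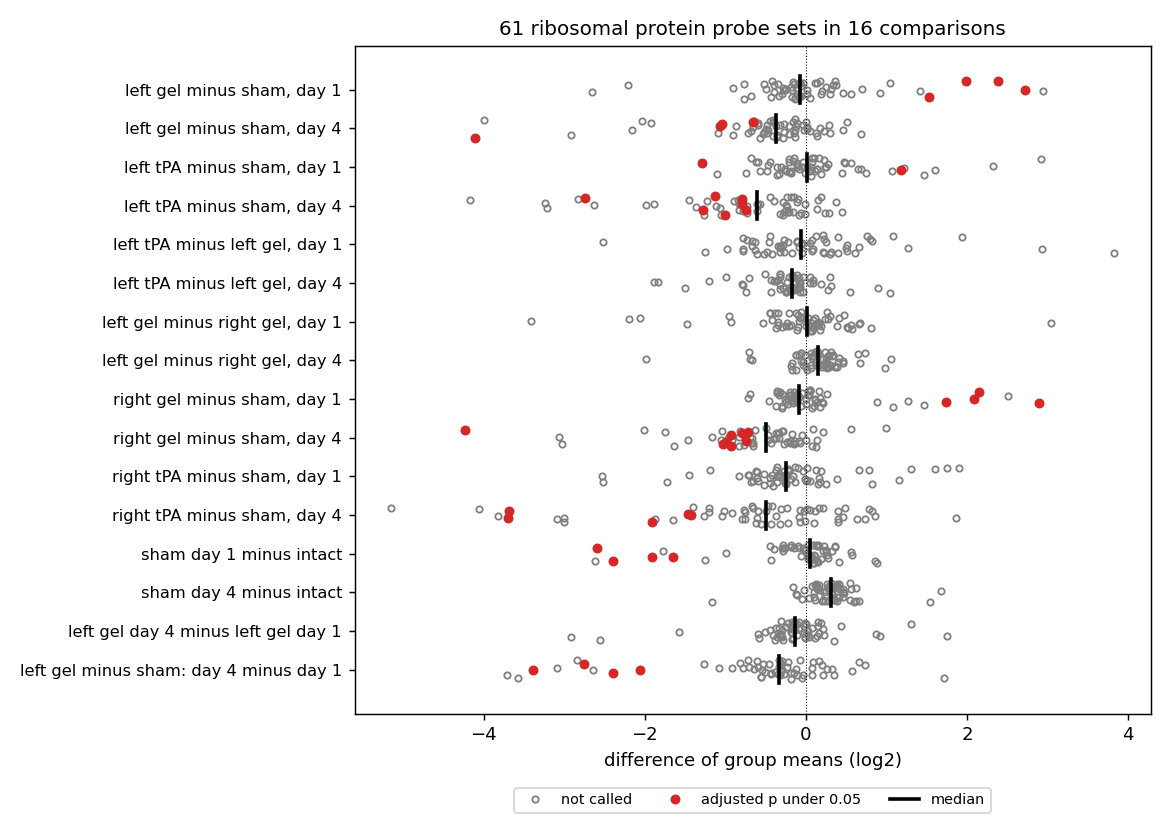
Difference of group means (log2) for 61 ribosomal protein probe sets in 16 comparisons; each point is a probe set, filled where limma's adjusted p is under 0.05, and the bar is the median. In the 4 comparisons with sham on day 4 the medians lie between -0.60 and -0.37 and all called members are lower.

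In injured arteries under gel on day 4, 4 members were called lower and 0 higher (6.56%; background 7.89% lower, 11.3% higher, 19.2% in either direction). The members' share of calls was thus below that of all probe sets, none of the 657 rises fell on a member, and the 4 that passed were Rps3a, Rpl24, Rpl6 and Rpl23. Rps3a, a small subunit protein, read 3250, 4069.7 and 3961 in left gel against 4657 to 10667 in sham day 4, median 8579, and was 2.10-fold lower (log2 -1.07, SE 0.31, limma adjusted p = 0.0144). Rpl24, which joins the large subunit late and forms a bridge to the small one, read 4661, 3081 and 5467 against 5379 to 12345 with rc_AA817997_g_at. Its groups overlapped by 1 array, and it was 2.06-fold lower (limma adjusted p = 0.0226), while its other probe set differed by 0.01. Rpl6, another large subunit protein, read 4084, 3926 and 4104 against 4439 to 8895, without overlap, and was 1.58-fold lower (limma adjusted p = 0.0495). The other Rpl6 probe set differed by -0.13 and was not called. Without left gel day 4 replicate 1 only 1 member was called, and without sham day 4 replicate 4, whose values were the lowest of its group in these 4 probe sets, 7 were.

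Rpl23 showed the largest difference and the least secure one. Its probe set X58200mRNA_g_at read 179.5, 168.1 and 231 in left gel day 4 against 879.5 to 6865 in sham day 4, a 17.2-fold difference (limma adjusted p = 0.0114). The second Rpl23 probe set, X58200mRNA_at, differed by 0.51 in the other direction and was not called. Over the 40 arrays the first probe set took values of 146.5 to 262.9 on 20 arrays and of 782.2 to 7371 on the other 20, with nothing between. On 11 of the low arrays another bright member, Rps3 (X51536cds_g_at), held the same value to within 0.5 intensity units, for example 194.8 and 194.8 in right gel day 4 replicate 1. On these arrays the 99th percentile was 27.6 to 31.8 times that value. How these values arose was not tested. When values under 300 of such bright probe sets were set to missing, no left gel day 4 array kept a value for Rpl23, and 3 members were called.

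In injured arteries under tPA on day 4, 7 members were called lower and 0 higher (11.5%; background 1.92% lower, 5.87% in either direction). Rps3a read 4921, 3486 and 1958 (2.43-fold lower than sham day 4), and Rps6, the small subunit protein that S6 kinases phosphorylate, read 5126, 4784 and 2937 against 5909 to 11408, without overlap, and was 2.00-fold lower. Rpl24 was 2.19-fold lower, Rpl6 1.73-fold, Rpl11, which with Rpl5 can bind Mdm2, 1.74-fold, and Rpl3, which shapes the peptidyl transferase centre, 1.68-fold. The limma adjusted p of these 6 lay between 0.0148 and 0.0433. The second probe sets of Rps6, Rpl24, Rpl6 and Rpl11 differed by only -0.16, -0.09, -0.22 and -0.15, and that of Rpl3 by -4.16. None of these partners was called.

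Replicate 3 of left tPA day 4 had the lowest value of the group in each of these 6 called members. Rps16, a small subunit protein, varied most: it read 5327, 490.4 and 325.5 under tPA against 3064 to 8654 in sham day 4. The groups overlapped through the first of these arrays, and the fitted difference was 6.68-fold (limma adjusted p = 0.0101). The count depended on single arrays, from 18 without left tPA day 4 replicate 1 to 1 without replicate 3 and 0 without replicate 2, and it was 3 or 4 without sham day 4 replicate 2, 3, 5 or 6. When only these groups were fitted, 0 were called. Without the 4 tPA arrays that stood apart, among them replicate 1 of this group, 20 members were called lower, these 7 included, and 18.1% of all probe sets were called.

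In the uninjured right arteries under gel on day 4, 8 members were called lower than sham and 0 higher (13.1%; background 2.59% lower, 8.82% in either direction). Rpl3 read 4514, 4852 and 4102 (X62166cds_s_at) against 5869 to 8238, without overlap, and was 1.64-fold lower (limma adjusted p = 0.0345). Rpl31, a protein at the exit of the nascent chain tunnel, read 4697, 4999.5 and 3920.4 against 5936 to 11595 and was 1.91-fold lower (limma adjusted p = 0.0349). Rpl11 read 4968, 3866 and 3533 against 4911 to 11382, overlapping by 1 array, and was 1.91-fold lower (limma adjusted p = 0.011).

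Rps3a was 2.05-fold lower there, Rpl6 1.73-fold, Rps6 1.68-fold and Rpl21 (rc_AA849648_at) 1.99-fold, all without overlap, with limma adjusted p of 0.0335 to 0.0437. Rpl23 gave 194.8, 186.9 and 147.3, the low readings described above. Second probe sets of Rpl3, Rpl11, Rpl6 and Rps6 differed by -2.01, -0.34, -0.43 and -0.38, and that of Rpl23 by 0.09. None of these partners was called. In all, 21 members of the 61 lay below every sham array in right gel, against 6.08% of all probe sets. The count fell to 0 without right gel day 4 replicate 2 or replicate 3, to 1 without replicate 1, to 2 without sham day 4 replicate 2 or 5 and to 3 without replicate 6. With quantile normalization it was 2.

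Under tPA the right arteries had 5 members called lower and 0 higher (8.2%; background 0.481% lower, 0.91% in either direction). Rpl27a, a large subunit protein, read 3206, 2521 and 3805 against 6297 to 11516 in sham day 4, far from overlapping, and was 2.68-fold lower (limma adjusted p = 0.0189). Rpl24 read 1895, 3663 and 4683 and was 2.77-fold lower (limma adjusted p = 0.0219). The other 3 rested in part on single low arrays: Rpl35, near the same tunnel exit, read 445.3, 4228 and 3773 (3.76-fold), Rps29, a small zinc-binding protein, 732.2, 14.5 and 2539 (12.9-fold), and Rpl13a, known to leave the ribosome and silence inflammatory mRNAs in macrophages, 3431, 1476 and 35.2 (13-fold). With bright values near 0 set to missing, Rpl13a had an adjusted p of 0.157 (limma) and was no longer called. Second probe sets of Rpl24, Rpl35, Rps29 and Rpl13a differed by 0.41, -0.62, -3.09 and -0.09 and were not called. Without right tPA day 4 replicate 1 the count was 2, without the 4 tPA arrays that stood apart, which include it, it was also 2 (Rpl13a and Rps29), and without sham day 4 replicate 4 it was 14.

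**Figure D4:**
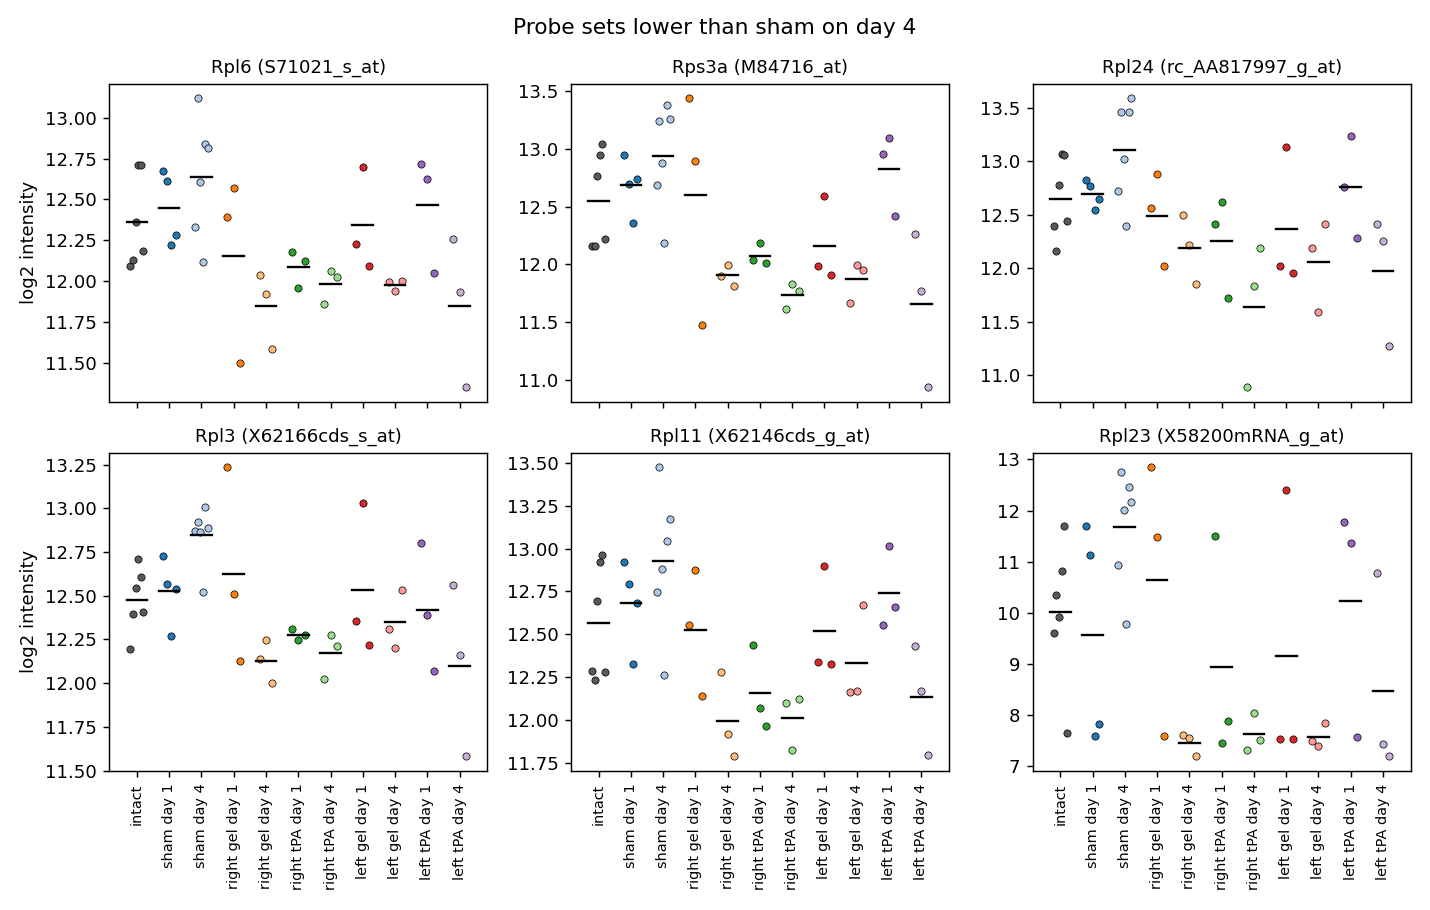
Log2 intensity of Rpl6, Rps3a, Rpl24, Rpl3, Rpl11 and Rpl23 probe sets on 40 arrays, by group; each point is an array and the line is the group mean. Sham day 4 has the highest mean in all 6 panels, and the Rpl23 panel shows 2 separate clusters of values with 20 arrays in each.

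tPA against plain gel, the comparison that isolates the agent, called no member. On day 1, 0 of 61 were called (background 0.12%; 8 at an unadjusted p under 0.05, limma) and the median was -0.05. The 2 largest differences in each direction were those of Rpl3 (rc_AA892367_i_at, 3.83, SE 2.26), Rps23 (2.93, SE 1.21), Rpl19l4 (-2.52, SE 1.17) and Rpl21 (rc_AA849648_g_at, -1.25, SE 0.54), with limma adjusted p of 0.300 or more. Of these, Rps23 held a reading of 5.1 in left gel day 1 replicate 3. On day 4, 0 were called again (background 0.12%; 1 at an unadjusted p under 0.05, limma), though 50 of 61 members were below 0, with a median of -0.17. The 2 largest in each direction were those of Rpsa, also known as the laminin receptor precursor (-1.89, SE 1.37), Rps16 (-1.84, SE 0.66), Rpl19l4 (1.04, SE 1.17) and Rpl23 (0.89, SE 1.35). Without the 4 tPA arrays that stood apart 1 member was called lower on day 4. With 3 arrays against 3, the median SE of a member's difference was 0.36.

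Injured against uninjured arteries under gel gave no call either: 0 of 61 on day 1 (background 0.549%; 2 at an unadjusted p under 0.05, limma; median 0.02) and 0 on day 4 (background 5.1%; 1 at an unadjusted p under 0.05, limma; median 0.16, 44 members above 0). On day 4 the same pair of groups differed in 5.1% of all probe sets at the threshold. In left gel, 8 members lay above every right gel array and 1 below, against 16.6% and 13.8% of all probe sets. With few arrays per group and a median SE of 0.36 for a member's difference, the absence of calls does not show equal levels.

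Markers of other cell types moved beside the members on day 4. In left gel against sham on day 4, 4 of 4 tested markers of dividing cells, 5 of 5 of macrophages and 6 of 6 of lymphocytes and leukocytes were called higher, and 2 of 5 of smooth muscle were called lower. The summed intensity of the 5 smooth muscle markers ranged from 11455 to 14367 on left gel arrays, below the 18706 to 33519 of sham day 4. That of the 5 macrophage markers was 12833 to 14108 against 1856 to 3694. None of these markers was at the floor on all arrays of either group. In right gel against sham on day 4, 0 of 4 markers of dividing cells and 0 of 6 of leukocytes were called, 2 of 5 macrophage markers were higher and 1 of 5 smooth muscle markers was lower. There 4 of 6 nerve and Schwann cell markers were called higher and 1 lower, with a sum of 7406 to 16582 against 5177 to 7026 in sham day 4. The part of these markers' cells in the members' values was not tested.

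A pair of members are paralogs with their own pattern. Rpl3l replaces Rpl3 in the ribosomes of muscle fibres. With rc_AA891037_g_at it had a log2 level of 8.16 ± 0.15 (SD, n = 3) in left gel day 1 against 5.22 ± 0.79 (SD, n = 4) in sham day 1, without overlap, but not called (limma adjusted p = 0.176), and the sham level is close to the floor. Its other probe set, rc_AA891037_at, differed by 0.57 (8.24 against 7.68, limma adjusted p = 0.617). Skeletal muscle markers were also higher in that comparison: 5 of 7 tested were called higher, and the sum of the 8 on the array was 21851 to 39307 in left gel day 1 against 2590 to 3968 in sham day 1, with Tnni2 at the floor on all sham day 1 arrays. In left tPA against sham on day 1, Rpl3l differed by 2.33 (SE 1.13) with rc_AA891037_g_at and by 1.07 (SE 0.42) with rc_AA891037_at. The muscle markers Ckm (-2.12, SE 0.95) and Acta1 (-3.09, SE 1.04) were lower there, and none of these differences was called. Not all muscle markers fell. Tnnc2 differed by 5.74 in left gel against sham on day 1 and by -5.19 in left tPA against left gel. Its mean in left tPA day 1 was thus above that of sham. Other muscle markers are not described for that comparison. The part of skeletal muscle in the Rpl3l values was not tested.

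Rps27l, a paralog of Rps27 known as a target of p53, read 6570.1, 4619 and 6155 in left gel day 1 against 2730 to 3233 in sham day 1, without overlap, a log2 difference of 0.92 (SE 0.29, limma adjusted p = 0.0792). On day 4 it read 6040.1, 6255 and 4810.4 against 2593 to 5955, overlapping through 1 sham array, a difference of 0.68 (limma adjusted p = 0.071). It was the member with the largest positive difference in that comparison, and it passed in the test over all 11 groups (adjusted p = 0.0467).

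A further 3 members passed only in the overall test. Rpl41, the smallest ribosomal protein, read 3325, 3343 and 2677 in right tPA day 4 and 1138, 1524 and 879.7 in left tPA day 1. Rps15, a small subunit protein, read 1032, 1355 and 1189 with rc_AA892895_r_at in left gel day 1 against 1752 to 2693 in intact arteries. Its mean log2 level was 12.07 against 12.00 with E01534cds_s_at, and 10.08 against 10.31 with rc_AA892895_i_at. Rpl21 (M27905_at) read 1534, 978.3 and 1537 in left gel day 1 against 2096 to 2874 in sham day 4.

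The members' own spread limits what these arrays can show. The within-group SD had a median of 0.44 over tested members, from 0.19 to 2.96, against 0.38 for other bright probe sets. Low readings of otherwise bright probe sets add to it: 7 values of 5 members (Rpsa, Rpl27, Rps29, Rpl13a and Rps23) lay under 100, 4 of them in right tPA day 4, and Rpl3 with rc_AA892367_i_at was listed at 0 on 16 arrays. That Rpl3 probe set differed by -3.99 (SE 1.96) in left gel against sham on day 4 and was not called. The 49 members with a median intensity of 1000 or more had a median span of group means of 0.94 (log2), and the 12 dimmer ones 2.66. By the naming rule, the 4 probe sets with the highest mean level were those of Rps4x-ps9 (median intensity 6788), Rpl21 (X15216cds_s_at, 6635), Rpl31 (6177) and Rps6 (M29358_g_at, 5871). Intensities of different probe sets depend on their probes, so no order of the genes follows from this. Of the 16 symbols with more than 1 tested probe set, each one called had a partner that was not called in the same comparison. Rpl21, Rpl23 and Rpl24 had partners with opposite signs.

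Among genes listed for ribosome biogenesis, which include the transcription factor Myc, several were higher in injured arteries than in sham. In left gel against sham on day 4, 11.3% of all probe sets were called higher. The list median of 9 tested genes of ribosome biogenesis was 0.81 there, against 0.02 for all probe sets. Of these 9 genes, 4 were called higher and 0 lower. They were Gnl3 (nucleostemin, 1.74, SE 0.38, limma adjusted p = 0.00117), Ncl (nucleolin, 1.51, SE 0.54, limma adjusted p = 0.0468), Polr1d (a subunit of RNA polymerases I and III, 0.85, SE 0.26, limma adjusted p = 0.02) and Nop58 (a core protein of box C/D small nucleolar RNPs, 0.81, SE 0.28, limma adjusted p = 0.0408). Under tPA, 2 of 9 were higher on day 1, Myc (2.32, SE 0.46, limma adjusted p = 0.0067) and Nop58 (1.21, SE 0.31, limma adjusted p = 0.0201), and on day 4 only Nop58 (1.03, SE 0.28, limma adjusted p = 0.0277). In both right gel comparisons with sham 0 of 9 were called. In left gel against right gel on day 4, Polr1b (-0.74, SE 0.32, limma adjusted p = 0.189) and Myc (0.96, SE 0.49, limma adjusted p = 0.31) were not called. Nor was Myc in left gel against sham on day 1 (1.40, SE 0.46, limma adjusted p = 0.0967).

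The factors that work with the ribosome changed in few cases. Of 4 tested elongation genes 2 were lower in left tPA against sham on day 4, Eef1a1 (-1.26, SE 0.30, limma adjusted p = 0.0136) and Eef1g (-0.53, SE 0.16, limma adjusted p = 0.0472), which deliver aminoacyl-tRNA and form part of the exchange factor, with a list median of -0.79. Of 12 initiation genes 1 was called on day 4, Eif2s3 in right gel (-0.76, SE 0.22, limma adjusted p = 0.0262). Of 10 signalling genes, Eef2k, the kinase that restrains elongation factor 2, was lower in left gel day 4 (-1.41, SE 0.27, limma adjusted p = 0.000318) and right gel day 4 (-0.82, SE 0.27, limma adjusted p = 0.0497), and Rps6kb1, an S6 kinase, was lower in right gel day 4 (-0.90, SE 0.25, limma adjusted p = 0.0178). Eif2ak3, a kinase of the unfolded protein response, was lower in left tPA day 1 (-1.40, SE 0.39, limma adjusted p = 0.0329). Of 13 mitochondrial ribosomal protein genes 1 was called higher in left gel day 4, Mrpl13 (0.81, SE 0.26, limma adjusted p = 0.0231), and the list's median there was 0.14. Rack1, a scaffold protein of the small subunit named outside the symbol rule, differed by -0.26 in left gel day 4 and was not called.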

How the data were processed

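Per the labels' protocols, total RNA of pooled carotid arteries was labelled with biotin and hybridised to Affymetrix U34A arrays. The intensity values that the authors deposited are linear, with 1 per probe set and array. How probes were summarised is not given in the sources used here, and the values had already been scaled to a like mean on every array, so each is relative to its array. Of 8799 probe sets, 59 controls were left out. Intensities below 23.3, the 20th percentile, were set to that floor before taking log2. The 2913 probe sets with the lowest mean were left out and 5827 tested.

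All 40 arrays were fitted with 11 group means by lmFit and eBayes of limma 3.58.1 under R 4.3.3, with Benjamini-Hochberg adjustment over all probe sets tested and a threshold of 0.05. There were 17 comparisons, and those with one control group share its arrays. P-values measure the spread between pools. Means of log2 values give folds. Members, translation lists, marker lists and comparisons were chosen with earlier results of these data known. Named members are those called in any comparison, the 4 brightest and 2 dimmest, the 2 largest differences each way in 4 of the comparisons, the 4 smallest p of the overall test, paralogs, and members whose probe sets differ in sign. The 2 dimmest are not described, being close to the floor. The fit was checked on simulated data. The number of arrays limits the precision. Same-numbered arrays deviated together (all correlations above 0.1) in 1 of 15 comparisons, right gel against sham on day 1 (0.12 to 0.28), although no label ties these animals together. The labels give no hybridisation batch. Alternatives were quantile normalization, median scaling, other floors and filters, moderation with trend and robust settings, fits on 2 groups alone, the replicate block, and arrays left out or averaged. Setting bright values under 300 to missing was added after seeing the data. Figures and promoter counts were made in Python 3.11.15. Gene symbols came from the platform annotation, which can be old.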

Additional observations from a re-analysis of the deposited data

Results flagged for a closer look

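In 4 probe sets the difference between left gel and sham changed between the days, by the test of the difference of effects in limma. Day 4 minus day 1 was -2.40 for Rpl17 (adjusted p = 0.00809), -2.76 for Rpl30 (adjusted p = 0.0286), and -2.06 (adjusted p = 0.00677) and -3.39 (adjusted p = 0.00393) for the Rpl21 probe sets rc_AA849648_at and rc_AA849648_g_at. In all 4 the sham day 1 arrays were the low ones.

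In sham day 4, 1 array stood far from its group in each of 2 members. Rpl21 (M27905_at) had a log2 level of 11.03 in replicate 6, with the nearest other array at 11.40, and Rpl3 (X62166cds_s_at) had 12.52 in replicate 4, with the nearest at 12.86. Of 69 groups looked at, 2 were marked in this way, and chance marks about 1 in 20.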

How the results depend on the processing

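No called member changed direction under any alternative run. Of 58 calls, 38 held with quantile normalization, 53 with median scaling, and all with the higher floor, the stricter filter, or trend and robust moderation. Of 42 calls of pairs and differences, 20 held when only the groups compared were fitted. With quantile normalization the count of called members was 0 in left tPA against sham on day 1 and 2 in right gel against sham on day 4. With median scaling it was 1 in right tPA against sham on day 1. With the 50% filter, and with trend and robust moderation, it was 8 in right tPA against sham on day 4. With only the groups compared it was 0 in left tPA against sham on day 1 and on day 4, and 1 in right tPA against sham on day 4, in left gel against right gel on both days and in left gel between the days. The replicate number was also used as a block, which the design does not support as a pairing. Against sham on day 4 the count was then 2 in left gel, 4 in left tPA, 1 in right gel and 3 in right tPA. It was 1 in left tPA against sham on day 1, and 0 for the change between days of left gel minus sham. Without the 4 tPA arrays that stood apart it was 20 in left tPA and 2 in right tPA against sham on day 4, 2 in right tPA against sham on day 1, and 1 in left tPA against left gel on day 4 and in left gel between the days, and 50 of the 58 calls held. With left gel day 1 replicates 1 and 3 averaged, 53 held. The causes were not tested.

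Leaving out one array at a time gave counts of 2 to 4 for left gel against sham on day 1 and 1 to 7 on day 4. Against sham on the same days they were 0 to 2 and 0 to 18 for left tPA, and 3 to 4 and 0 to 12 for right gel. For right tPA against sham on day 4 they were 2 to 14, and for sham day 1 against intact 4 to 5. The change between days of left gel minus sham had 3 to 4. Left tPA against left gel on day 4 had 0 to 1, and the test over all groups 11 to 26. In the other 6 comparisons leaving out an array gave 0 throughout. Median scaling moved the median of all probe sets by over 0.1 in several comparisons. For left tPA against sham on day 1 it went from 0.14 to -0.15, and the members' median from 0.01 to -0.28. For right gel against sham on day 1 these went from 0.09 to -0.19 and from -0.08 to -0.35. For left gel between the days they went from 0.18 to -0.12 and from -0.14 to -0.43. With bright values under 300 set to missing, Rpl23 had no value left in left gel, right gel or right tPA on day 4 and gave no difference there. Most groups hold 3 arrays, which limits the precision.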
